A study of Mus musculus with 20 samples.

Results

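The genes studied here are 41 listed genes of glucose uptake, glycolysis, lactate handling, pyruvate dehydrogenase and the citric acid cycle, taken by name through the annotation of the array's probe sets. A probe set named for 1 gene was found for 36 of them (450 of the 194293 probe sets), among 15803 genes in all, and all 36 passed the filter that left 11852 genes to be tested. Gapdh, Pgk1, Pgam1, Pkm and Ldha, which belong to the lower steps of glycolysis and to lactate production, are not analysed here. Few probe sets stand behind some members: Eno1, Tpi1 and Pdhb had 1 each, and Gpi1, Aldoa and Ldhb had 2 each. Retinas came from Nrl-/- mice of the C57Bl/6J strain aged 1, 2, 4, 6 and 10 months, with 4 mice per age, 1 array per mouse and the pair of retinas of that mouse in 1 sample. Every mouse carried the deletion and no retina with Nrl was among the arrays, so each comparison sets a later age against an earlier one within the mutant. Nrl is the transcription factor that makes photoreceptor precursors become rods, and in its absence they become cone-like cells, which limits the model to a retina that is nearly free of rods. Values are log2 intensities, so a difference of 1 is a doubling.

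Photoreceptors consume glucose at a high rate and turn much of it into lactate even when oxygen is plentiful. Glucose enters through facilitative transporters, is trapped by hexokinase, is committed to glycolysis by phosphofructokinase and leaves the pathway as pyruvate. Pyruvate is either reduced to lactate, which monocarboxylate transporters carry across membranes together with their chaperone basigin, or enters the mitochondrion, where pyruvate dehydrogenase and the citric acid cycle oxidise it. Pyruvate dehydrogenase kinases switch the first of these mitochondrial steps off.

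Slc16a3, Hk2, Pfkfb2 and Pdk1 were among the 6 members with the smallest p over the ages, and the 250 bases before a transcription start of each are printed here because 3 of them fell and 1 rose with age. Sequences are from RefSeq on GRCm38.p6 and run 5′ to 3′ on the gene's strand. Capitals mark ACGTG or GCGTG, the core of the hypoxia response element, or TAATCC, a core bound by the photoreceptor factor Crx, on either strand. The windows are chr11:120948817-120949066 on the + strand for Slc16a3, chr6:82774455-82774704 on the - strand for Hk2, chr1:130715822-130716071 on the - strand for Pfkfb2 and chr2:71872974-71873223 on the + strand for Pdk1, and the last 2 genes have other starts in that table as well.
Slc16a3: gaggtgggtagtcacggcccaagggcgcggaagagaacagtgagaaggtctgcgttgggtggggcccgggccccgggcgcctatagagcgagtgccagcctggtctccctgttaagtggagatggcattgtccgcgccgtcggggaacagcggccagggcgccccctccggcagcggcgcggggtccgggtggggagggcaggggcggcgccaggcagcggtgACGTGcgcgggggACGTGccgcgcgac
Hk2: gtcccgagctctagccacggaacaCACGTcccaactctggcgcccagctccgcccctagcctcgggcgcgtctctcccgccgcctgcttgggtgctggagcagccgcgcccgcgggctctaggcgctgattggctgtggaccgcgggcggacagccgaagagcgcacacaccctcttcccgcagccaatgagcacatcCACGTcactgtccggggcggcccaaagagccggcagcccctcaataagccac
Pfkfb2: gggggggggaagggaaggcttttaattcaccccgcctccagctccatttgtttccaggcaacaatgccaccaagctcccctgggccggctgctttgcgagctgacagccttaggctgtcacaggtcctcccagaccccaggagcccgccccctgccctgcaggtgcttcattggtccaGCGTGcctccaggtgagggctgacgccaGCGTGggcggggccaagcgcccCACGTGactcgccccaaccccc
Pdk1: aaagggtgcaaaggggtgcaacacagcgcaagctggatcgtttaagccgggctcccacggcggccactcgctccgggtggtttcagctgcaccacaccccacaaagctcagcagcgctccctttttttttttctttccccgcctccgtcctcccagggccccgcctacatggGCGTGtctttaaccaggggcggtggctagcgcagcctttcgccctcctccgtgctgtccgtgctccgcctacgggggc

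Slc16a3 and Hk2 each held 2 matches to ACGTG and none to GCGTG, and the Pfkfb2 window held a CACGTG, which is its own reverse complement and counts as 2 matches to ACGTG and is also the E-box, beside 2 matches to GCGTG. The Pdk1 window held 1 match to GCGTG. No TAATCC lay in these 4 windows. The window of Pfkp, also among the 6 members with the smallest p but not printed, held 3 matches to GCGTG and 1 to TAATCC. The other Pdk1 window held no match, and the other Pfkfb2 windows held 1 match each. A window was found for 32 of the 36 measured members, and ACGTG was present for 13 of them (40.6%), against 24.8% of the 9473 tested genes with a window and 18.5% of all 27025 genes with one. GCGTG was present for 59.4% of the members against 48.5% of the tested genes, and TAATCC for 15.6% against 6.37%. Members had more windows per gene (50 for 32 genes, against 12264 for 9473 tested genes), so a share of genes favours them. By window, ACGTG was present in 42.0% against 20.9%, GCGTG in 54.0% against 42.4% and TAATCC in 12.0% against 5.15%. Such matches are letters in a window, were not tested against chance, and do not show binding.

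The arrays were alike in their overall level, with medians of 7.76 to 7.78, and the mean correlation of an array with the others ran between 0.974 and 0.988. Replicate 4 of 4 months had the lowest of these correlations and the smallest SD of its values (2.281). Replicate 3 of 10 months was next in both (0.975 and 2.303). The 4 month array was the lowest of its age for some members, such as Dld and Idh3a, and the highest for others, such as Aldoa and Slc2a1. Markers of cones were present as the label requires, with all 10 of 10 listed genes above the level limit, while 3 of 7 measured skeletal muscle markers were above it. The mean level of the Y-linked genes lay between 4.01 and 4.28 on all 4 arrays of 2 months and at 4.12 and 4.43 on replicates 2 and 3 of 10 months, against 7.33 or more on all other arrays. A comparison with 2 months therefore cannot be told apart from one between arrays that differ in the Y-linked level. Comparisons with 10 months carry the same limit in part, through replicates 2 and 3 of that age. RNA came from whole retina, so a fall can be fewer cells of a type or less RNA per cell, and these cannot be told apart.

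The share of members called lay near or below the share of all genes tested in the comparisons with 1 month. For 10 months against 1 month 11 of 36 members passed the test (limma, Benjamini-Hochberg adjusted p under 0.05), which is 30.6% beside 41.3 percent of all genes tested. The 6 higher members were Slc2a3, Gpi1, Pfkl, Pfkm, Pdha1 and Pdk1, beside 20.6 percent of all genes, and the 5 lower members were Slc16a3, Hk2, Pfkfb2, Ogdh and Idh3a, beside 20.7 percent. Earlier ages had fewer calls. At 2 months against 1 month 2 members passed (8.56 percent of all genes), Hk1 higher and Pfkp lower. At 4 months against 1 month 5 members passed (15.2 percent of all genes), with Slc2a3 and Pdk1 higher and Pfkp, Pfkfb2 and Idh3g lower. At 6 months against 1 month 5 members passed (16.3 percent of all genes), with Slc2a3, Pdk1 and Tpi1 higher and Pfkp and Pfkfb2 lower. The F test over all ages called 10 of 36 members beside 38.4 percent of all genes. The median size of the members' change for 10 months against 1 month was 0.15 on the log2 scale, beside 0.19 for all genes tested.

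Between neighbouring ages, most calls came after 6 months. A comparison of 10 months against 6 months called 8 members, 22.2% beside 20.4 percent of all genes tested. Of these, 7 were lower (Slc16a3, Hk2, Fh1, Pfkfb2, Ogdh, Slc2a3 and Slc2a1), beside 11.7 percent of all genes, and Pfkp alone was higher, beside 8.61 percent of all genes. The members' median change was -0.07 on the log2 scale, beside 0.03 for all genes tested. Against 4 months, 6 members passed at 10 months (21.8 percent of all genes), with Pfkp and Pdk2 higher and Slc16a3, Hk2, Slc2a1 and Ogdh lower. In the months between there were no calls: 4 months against 2 months gave 0 members with limma (0.118 percent of all genes), with 1 member at an unadjusted p under 0.05 (8.16 percent of all genes). Likewise, 6 months against 4 months gave 0 members (0 percent of all genes), with 2 members at an unadjusted p under 0.05 (4.51 percent of all genes). The mean level was highest at 6 months in 11 of the 36 members, beside 12.3% of all genes tested, and lowest at 6 months in 0 of them, beside 13.9% of all genes tested. It was highest at 10 months in 10 members, beside 38.6% of all genes, and lowest at 10 months in 13, beside 29.8%. At 1 month it was highest in 7, beside 26.0%, and lowest in 12, beside 31.5%. Comparisons that share an age share its arrays, so their calls are not independent of each other.

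**Figure D1:**
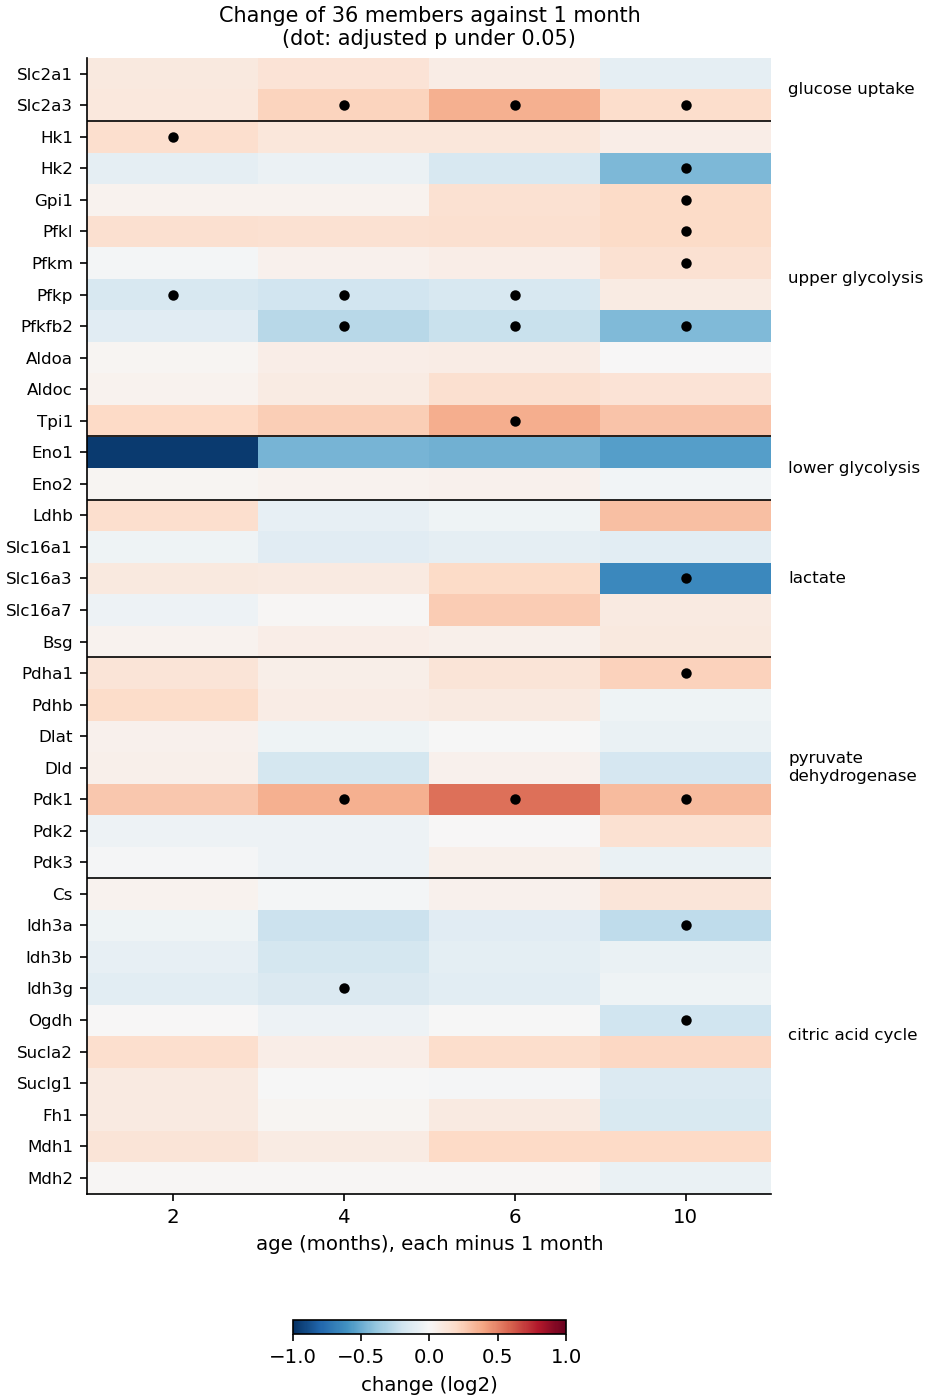
Change of the 36 measured members in log2 units at 2, 4, 6 and 10 months (columns), each minus 1 month, with members in rows by role and a dot where the adjusted p was under 0.05. The darkest called fall is Slc16a3 at 10 months (-0.64) and the darkest called rise is Pdk1 at 6 months (0.55), while the dark cells of Eno1, measured by 1 probe set, carry no dot.

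Glucose uptake was measured by Slc2a1 (GLUT1, the transporter of the blood-retina barrier and photoreceptors) and Slc2a3 (GLUT3, the main neuronal transporter). The level of Slc2a3 was 9.91, 10.02, 10.05 and 10.12 at 1 month, 10.09, 10.10, 10.12 and 10.21 at 2 months, and 10.10, 10.25, 10.30 and 10.34 at 4 months. It was 10.33, 10.34, 10.37 and 10.50 at 6 months and 10.15, 10.16, 10.18 and 10.32 at 10 months. All 6 month arrays and all 10 month arrays lay above every 1 month array, and each of the 10 month arrays lay below each of the 6 month arrays. The rise was 0.36 ± 0.06 (SE, 4 arrays each, limma adjusted p = 0.000659) for 6 months against 1 month, with 5 of 12 probe sets called higher. It was 0.22 ± 0.06 for 4 months against 1 month (adjusted p = 0.0215) and 0.18 ± 0.06 for 10 months against 1 month (adjusted p = 0.0293). Single arrays decided the smaller of these rises. The 4 month call was lost without 1 month replicate 3 or 4 months replicates 1 or 3 (adjusted p up to 0.0746), and the 10 month call without 1 month replicates 3 or 4 or 10 months replicate 4 (adjusted p up to 0.0974). The later fall, -0.18 ± 0.06 for 10 months against 6 months (adjusted p = 0.0444), was lost in 7 of 8 fits that left out 1 array of these ages (adjusted p up to 0.144), and passed without 10 months replicate 4.

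For Slc2a1 the level was 11.48, 11.48, 11.50 and 11.51 at 1 month, 11.54, 11.55, 11.60 and 11.66 at 2 months, and 11.58, 11.61, 11.64 and 11.68 at 4 months. It was 11.52, 11.56, 11.56 and 11.61 at 6 months and 11.26, 11.35, 11.45 and 11.54 at 10 months. Arrays of 10 months spread more widely than those of any other age and 1 of them overlapped the 6 month arrays. Slc2a1 fell by 0.23 on the log2 scale for 10 months against 4 months (SE 0.05, adjusted p = 0.00498) and in every fit that left out 1 array. The change for 10 months against 6 months was -0.16 ± 0.05 (adjusted p = 0.0354), a call that 5 of 8 such fits lost (adjusted p up to 0.127). Of 6 markers of endothelium and pericytes, 2 were lower for 10 months against 4 months and 1 for 10 months against 6 months. Over the 10 month arrays the mean of these markers ran from 7.04 to 7.13, and that of pigment epithelium markers from 6.53 to 8.45. Both lists, like Slc2a1, were lowest on replicate 2 and highest on replicate 1 of that age. The part of these cells in the change of Slc2a1 was not tested.

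Upper glycolysis held both directions at 10 months: of 10 members, Gpi1, Pfkl and Pfkm were higher and Hk2 and Pfkfb2 lower than at 1 month, and 5 did not pass (20.6 percent of all genes tested were higher and 20.7 percent lower). Hk2 encodes the hexokinase that photoreceptors use beside Hk1, and it traps glucose as its phosphate. Its level was 11.57, 11.57, 11.60 and 11.61 at 1 month, 11.44, 11.44, 11.53 and 11.58 at 2 months, and 11.45, 11.47, 11.58 and 11.62 at 4 months. It was 11.33, 11.42, 11.44 and 11.53 at 6 months and 10.92, 10.96, 11.28 and 11.37 at 10 months. Replicates 1 and 2 of 10 months were the lower pair, and every 10 month array lay below every 1 month array, with an overlap between 10 and 6 months. The fall was -0.45 ± 0.08 for 10 months against 1 month (adjusted p = 0.000234), and all 25 of its 25 probe sets were called lower there. It was -0.39 ± 0.08 for 10 months against 4 months (adjusted p = 0.0022) and -0.29 ± 0.08 for 10 months against 6 months (adjusted p = 0.0156). The last of these calls was lost without 6 months replicate 2 or without 10 months replicates 1 or 2 (adjusted p up to 0.0594). Over all alternatives, that call was lost in 7 of 20 (adjusted p up to 0.118). Of the 25 probe sets of Hk2, 1 was called lower for 10 months against 6 months.

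Hk1, the hexokinase of most tissues, behaved otherwise. Its level was 10.65, 10.68, 10.74 and 10.75 at 1 month, 10.85, 10.85, 10.85 and 10.94 at 2 months, and 10.73, 10.80, 10.85 and 10.89 at 4 months. It was 10.80, 10.82, 10.83 and 10.83 at 6 months and 10.71, 10.73, 10.80 and 10.84 at 10 months. The 2 month arrays lay above all 1 month arrays, and the change was 0.17 ± 0.05 for 2 months against 1 month (adjusted p = 0.0307), which 5 of 8 fits without 1 array of these ages lost (adjusted p up to 0.104). With the brightest probe set alone it was 0.08 (adjusted p = 0.653). The change at 10 months against 1 month was 0.07 ± 0.05 (adjusted p = 0.261).

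Phosphofructokinase has subunits of liver, muscle and platelet type, encoded by Pfkl, Pfkm and Pfkp. The platelet subunit Pfkp was at 10.67, 10.68, 10.71 and 10.76 at 1 month, 10.50, 10.53, 10.55 and 10.60 at 2 months, and 10.50, 10.50, 10.50 and 10.54 at 4 months. It was at 10.49, 10.53, 10.53 and 10.63 at 6 months and at 10.75, 10.76, 10.81 and 10.82 at 10 months. The levels of 2, 4 and 6 months thus lay below all arrays of both 1 month and 10 months. Pfkp fell by 0.19 on the log2 scale for 4 months against 1 month (SE 0.04, adjusted p = 0.00444), and its rise was 0.24 ± 0.04 for 10 months against 6 months (adjusted p = 0.000542) and 0.28 ± 0.04 for 10 months against 4 months (adjusted p = 0.000178). All 25 probe sets had the sign of that rise for 10 months against 6 months and 7 of them passed on their own. The change for 6 months against 1 month, -0.16 ± 0.04 (adjusted p = 0.0151), did not pass without 1 month replicate 3 or 6 months replicate 4 (adjusted p up to 0.055). The change for 2 months against 1 month, -0.16 ± 0.04 (adjusted p = 0.0258), did not pass in 6 of 8 such fits (adjusted p up to 0.083) and was -0.07 with the Y-linked level as covariate (adjusted p = 0.665). Against 1 month, the change at 10 months was 0.08 ± 0.04 (adjusted p = 0.133).

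The muscle subunit Pfkm was at 10.73, 10.76, 10.81 and 10.81 at 1 month, 10.75, 10.76, 10.76 and 10.77 at 2 months, and 10.78, 10.80, 10.85 and 10.86 at 4 months. It was at 10.81, 10.83, 10.87 and 10.87 at 6 months and at 10.86, 10.94, 10.96 and 10.97 at 10 months. Every 10 month array lay above those of 1 month, and the rise was 0.15 ± 0.04 (adjusted p = 0.00521), with 8 of 22 probe sets called higher. The liver subunit Pfkl was higher by 0.19 ± 0.06 (adjusted p = 0.0205), a call that did not pass without 1 month replicate 3 or 10 months replicate 3 (adjusted p up to 0.0831) and was lost in a fit with the Y-linked genes as covariate (adjusted p = 0.26).

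Pfkfb2 encodes a bifunctional enzyme that makes and removes the sugar bisphosphate which activates phosphofructokinase. Its level was 10.29, 10.31, 10.32 and 10.32 at 1 month, 10.14, 10.16, 10.24 and 10.26 at 2 months, and 9.99, 10.01, 10.04 and 10.08 at 4 months. It was 10.06, 10.08, 10.09 and 10.11 at 6 months and 9.67, 9.85, 9.92 and 10.03 at 10 months. All arrays of 2, 4, 6 and 10 months lay below those of 1 month, and those of 10 months below those of 6 months. The fall was -0.28 ± 0.06 for 4 months against 1 month (adjusted p = 0.0033), -0.23 ± 0.06 for 6 months against 1 month (adjusted p = 0.012) and -0.44 ± 0.06 for 10 months against 1 month (adjusted p = 8.9e-06). Against 6 months, the fall at 10 months was -0.21 ± 0.06 (adjusted p = 0.0137), with 0 of its 18 probe sets called on their own. That call was lost with the brightest probe set alone (-0.13, adjusted p = 0.384) and with only the arrays of the ages compared (adjusted p = 0.0888). Of its 18 probe sets, 14 were called lower for 10 months against 1 month and all 18 had that sign.

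Gpi1, which interconverts glucose and fructose phosphates, was measured by 2 probe sets. Its level was 12.59, 12.69, 12.73 and 12.73 at 1 month, 12.70, 12.71, 12.73 and 12.74 at 2 months, and 12.54, 12.75, 12.76 and 12.84 at 4 months. It was 12.74, 12.81, 12.86 and 12.93 at 6 months and 12.87, 12.87, 12.87 and 12.89 at 10 months. All arrays of 10 months lay above the 1 month arrays, and the rise was 0.19 ± 0.06 (adjusted p = 0.0122). The triose isomerase gene Tpi1, with 1 probe set, was higher for 6 months against 1 month by 0.36 ± 0.11 (adjusted p = 0.0361), a call that 5 of 8 fits without 1 array of these ages lost (adjusted p up to 0.14). For the aldolases, the changes for 10 months against 1 month were 0.01 ± 0.05 for Aldoa (adjusted p = 0.934) and 0.14 ± 0.06 for Aldoc (adjusted p = 0.0701).

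Of the lower steps of glycolysis, the enolases were measured, and neither passed in any comparison. Eno1, with 1 probe set, was dim, with a mean of 6.72 over all arrays against 12.04 for Eno2. Its lowest array, of 2 months, stood at 5.16, under the level limit of 5.61 applied to gene means. The changes of Eno1 were as large as -0.96 ± 0.33 for 2 months against 1 month (adjusted p = 0.0758), with an SD of 0.99 among the 2 month arrays. Eno2, the neuronal enolase, had changes between -0.07 and 0.05 on the log2 scale over the 8 comparisons.

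**Figure D2:**
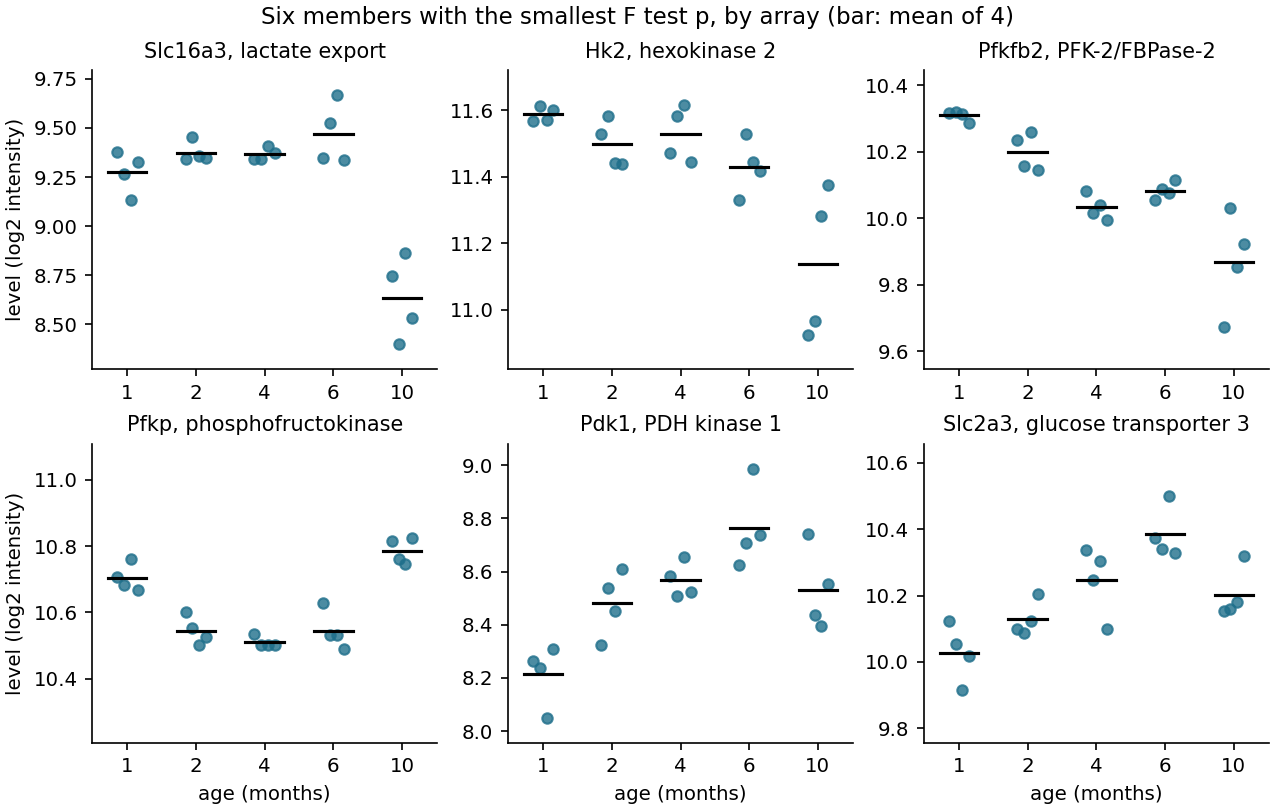
Level (log2 intensity) of Slc16a3, Hk2, Pfkfb2, Pfkp, Pdk1 and Slc2a3 on each array against age in months, with a bar at the mean of 4 arrays and a separate vertical range in each panel. Slc16a3 sits between 9.13 and 9.67 up to 6 months and between 8.40 and 8.86 at 10 months, and Pdk1 and Slc2a3 have their highest means at 6 months.

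Lactate handling held the largest called change of all the members. Slc16a3 encodes the lactate exporter MCT4, typical of cells that run glycolysis at a high rate. Its level was 9.13, 9.27, 9.33 and 9.38 at 1 month, 9.34, 9.35, 9.36 and 9.45 at 2 months, and 9.34, 9.34, 9.37 and 9.41 at 4 months. It was 9.34, 9.35, 9.52 and 9.67 at 6 months and 8.40, 8.53, 8.75 and 8.86 at 10 months. Every 10 month array lay below every array of the other ages, while 1, 2, 4 and 6 months overlapped. The fall was -0.83 ± 0.09 for 10 months against 6 months (adjusted p = 3.74e-06), or 0.561 of the 6 month level. It was -0.73 ± 0.09 for 10 months against 4 months (adjusted p = 1.65e-05) and -0.64 ± 0.09 for 10 months against 1 month (adjusted p = 1.4e-05). All 5 of its probe sets were lower for 10 months against 6 months, from -0.94 to -0.20, and 3 of them passed on their own. Before that age, the change for 6 months against 1 month was 0.19 ± 0.09 (adjusted p = 0.152). The range of its age means was larger than that of 97.9% of the genes tested.

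The gene summaries of the other lactate members did not pass in any comparison. Slc16a1 encodes MCT1, which imports or exports lactate. Its level was 10.54, 10.55, 10.59 and 10.62 at 1 month, 10.49, 10.51, 10.56 and 10.57 at 2 months, and 10.37, 10.43, 10.52 and 10.54 at 4 months. It was 10.44, 10.45, 10.51 and 10.54 at 6 months and 10.24, 10.27, 10.67 and 10.70 at 10 months. Arrays of 10 months formed a low pair, replicates 1 and 2 as for Hk2, and a high pair, replicates 3 and 4. These pairs lay on either side of the 6 month arrays, and the SD at 10 months was 0.25. The change was -0.01 ± 0.08 for 10 months against 6 months (adjusted p = 0.916).

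Bsg encodes basigin, the chaperone that brings MCT1 and MCT4 to the membrane. Its level was 12.64, 12.67, 12.69 and 12.78 at 1 month, 12.70, 12.70, 12.75 and 12.77 at 2 months, and 12.71, 12.73, 12.80 and 12.80 at 4 months. It was 12.67, 12.72, 12.77 and 12.82 at 6 months and 12.71, 12.78, 12.83 and 12.87 at 10 months. These groups overlapped, and the change was 0.05 ± 0.05 for 10 months against 6 months (adjusted p = 0.49).

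Ldhb, the lactate dehydrogenase subunit of oxidative tissues, was measured by 2 probe sets. Its level was 7.30, 7.45, 7.84 and 7.87 at 1 month, 7.43, 7.77, 7.92 and 8.003 at 2 months, and 7.08, 7.31, 7.64 and 8.10 at 4 months. It was 7.28, 7.39, 7.57 and 8.04 at 6 months and 7.57, 7.84, 7.93 and 8.33 at 10 months. All ages overlapped, and the change of 0.34 ± 0.21 for 10 months against 6 months did not pass (adjusted p = 0.276). Of its 2 probe sets, 1 passed the filter on dim probe sets and was called higher for 10 months against 1 month (0.41). The summary of Ldhb did not pass there. Over all ages, 1 of 31 alternatives called Ldhb (F test, adjusted p = 0.0102). The neuronal carrier Slc16a7 (MCT2) had a change of -0.16 ± 0.14 for 10 months against 6 months and did not pass either (adjusted p = 0.439).

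**Figure D3:**
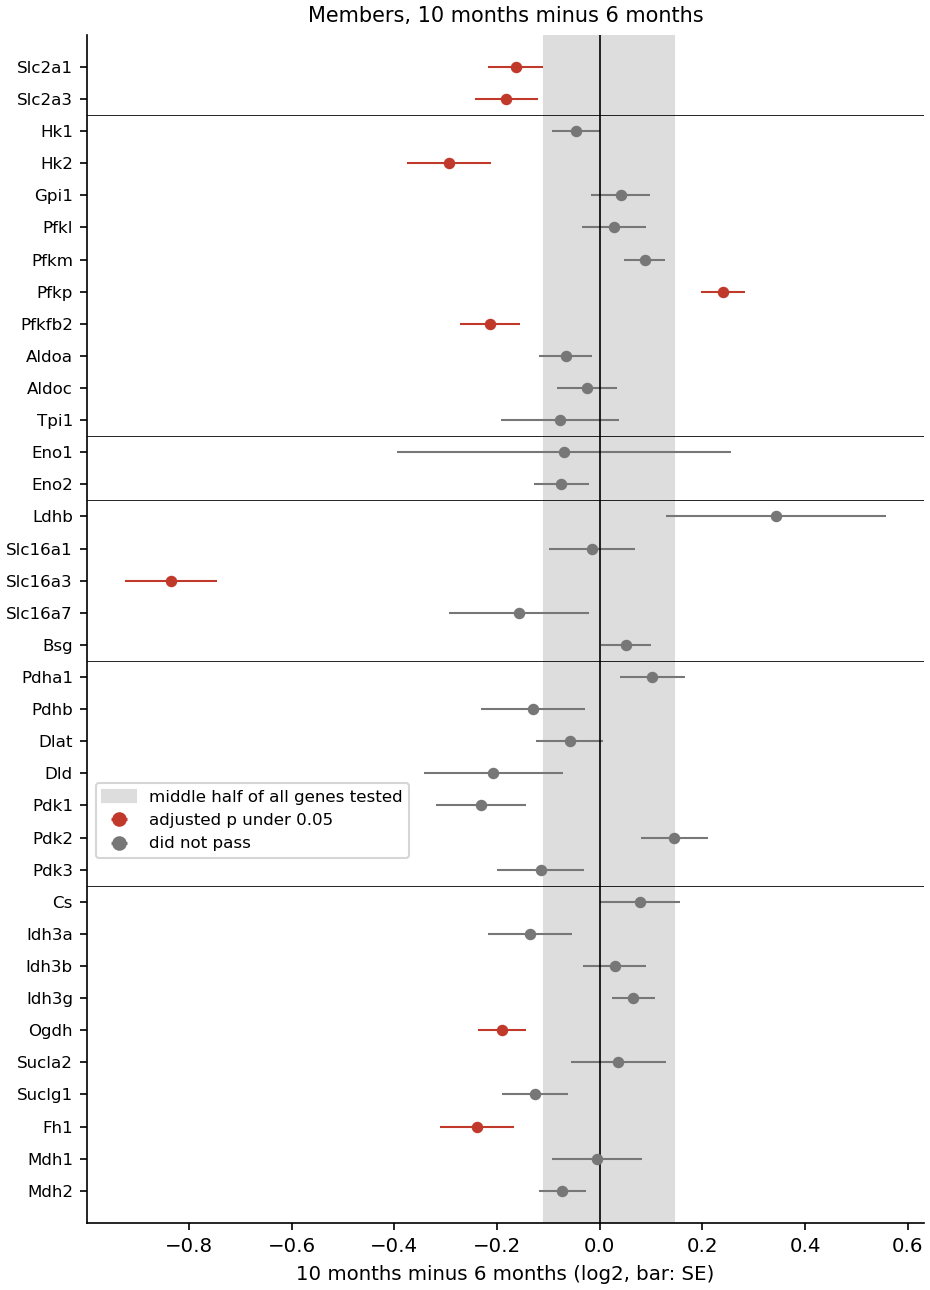
Change of each measured member for 10 months minus 6 months (log2, horizontal axis) with its SE, by role from glucose uptake at the top to the citric acid cycle at the bottom. The 8 members in red passed an adjusted p of 0.05, and the grey band marks the middle range of all genes tested, from -0.11 to 0.14.

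At the entry of pyruvate into the mitochondrion, 2 of 7 members rose for 10 months against 1 month and none fell, beside 20.6 percent of all genes tested that were higher and 20.7 percent that were lower. Pdk1 encodes a kinase that inactivates pyruvate dehydrogenase. Its level was 8.05, 8.24, 8.27 and 8.31 at 1 month, 8.32, 8.45, 8.54 and 8.61 at 2 months, and 8.51, 8.52, 8.58 and 8.66 at 4 months. It was 8.62, 8.71, 8.74 and 8.99 at 6 months and 8.39, 8.44, 8.55 and 8.74 at 10 months. Every array of 2 months and later lay above every 1 month array, and the 10 month arrays overlapped those of 6 months. The rise was 0.35 ± 0.09 for 4 months against 1 month (adjusted p = 0.0104), 0.55 ± 0.09 for 6 months against 1 month (adjusted p = 0.000347) and 0.32 ± 0.09 for 10 months against 1 month (adjusted p = 0.0071). For 6 months against 1 month 7 of its 13 probe sets were called higher. The change for 10 months against 6 months was -0.23 ± 0.09 (adjusted p = 0.07).

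Pdha1 encodes the subunit of pyruvate dehydrogenase that those kinases phosphorylate. Its level was 10.03, 10.11, 10.12 and 10.14 at 1 month, 10.14, 10.20, 10.24 and 10.31 at 2 months, and 10.08, 10.10, 10.22 and 10.23 at 4 months. It was 10.15, 10.16, 10.20 and 10.40 at 6 months and 10.25, 10.26, 10.39 and 10.41 at 10 months. Each array of 10 months lay above the 1 month arrays, and the rise was 0.23 ± 0.06 (adjusted p = 0.00661).

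Pdk2, another of the kinases, was at 9.95, 9.98, 10.00 and 10.08 at 1 month, 9.81, 9.94, 10.01 and 10.04 at 2 months, and 9.88, 9.92, 9.93 and 10.09 at 4 months. It was at 9.87, 9.95, 10.06 and 10.16 at 6 months and at 10.11, 10.15, 10.17 and 10.18 at 10 months. The 10 month arrays lay above those of 4 months, by 0.20 ± 0.07 (adjusted p = 0.0365), but 6 of 8 fits without 1 array of these ages lost the call (adjusted p up to 0.0847). Pdhb, Dlat, Dld and Pdk3 did not pass in any comparison, and their changes for 10 months against 1 month lay between -0.17 and -0.04 on the log2 scale.

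Of the 10 citric acid cycle members, Ogdh and Idh3a fell for 10 months against 1 month and none rose, 2 of 10 beside 20.7 percent of all genes tested that were lower and 20.6 percent that were higher. Ogdh encodes the first subunit of the oxoglutarate dehydrogenase complex. Its level was 11.45, 11.53, 11.55 and 11.57 at 1 month, 11.49, 11.52, 11.52 and 11.57 at 2 months, and 11.37, 11.48, 11.48 and 11.57 at 4 months. It was 11.50, 11.51, 11.53 and 11.53 at 6 months and 11.28, 11.29, 11.32 and 11.41 at 10 months. The 10 month arrays lay below all those of 1, 2 and 6 months. The fall was -0.20 ± 0.05 for 10 months against 1 month (adjusted p = 0.00249), with 8 of 26 probe sets called lower, and -0.19 ± 0.05 for 10 months against 6 months (adjusted p = 0.00709). The change for 10 months against 4 months, -0.15 ± 0.05 (adjusted p = 0.0308), did not pass in 6 of 8 fits that left out 1 array (adjusted p up to 0.0979).

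Fh1 encodes fumarate hydratase. Its level was 8.89, 8.94, 9.02 and 9.15 at 1 month, 8.94, 9.05, 9.17 and 9.21 at 2 months, and 8.87, 9.04, 9.06 and 9.10 at 4 months. It was 9.00, 9.02, 9.16 and 9.18 at 6 months and 8.77, 8.86, 8.86 and 8.91 at 10 months. The 10 month arrays lay below those of 6 months, with a change of -0.24 ± 0.07 (adjusted p = 0.0244), and the call was lost without 6 months replicates 3 or 4 or 10 months replicate 3 (adjusted p up to 0.0793).

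The NAD-dependent isocitrate dehydrogenase has subunits encoded by Idh3a, Idh3b and Idh3g. Idh3a was at 10.43, 10.50, 10.57 and 10.63 at 1 month, 10.36, 10.43, 10.50 and 10.65 at 2 months, and 10.13, 10.34, 10.35 and 10.46 at 4 months. It was at 10.35, 10.37, 10.47 and 10.47 at 6 months and at 10.08, 10.25, 10.36 and 10.43 at 10 months. The highest array of 10 months and the lowest of 1 month stood at the same printed level, and the other 10 month arrays lay below. The fall of -0.25 ± 0.08 for 10 months against 1 month (adjusted p = 0.0189) was lost without 1 month replicate 1 or 10 months replicate 1 (adjusted p up to 0.0783). It was also lost with the mean of the probe sets (adjusted p = 0.0552), with the Y-linked level as covariate (adjusted p = 0.0957) and with the brightest probe set alone (-0.17, adjusted p = 0.348), so 5 of 20 alternatives did not give it.

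Idh3g was at 10.18, 10.23, 10.27 and 10.29 at 1 month, 10.10, 10.11, 10.16 and 10.19 at 2 months, and 10.07, 10.10, 10.11 and 10.12 at 4 months. It was at 10.10, 10.13, 10.14 and 10.16 at 6 months and at 10.14, 10.17, 10.21 and 10.28 at 10 months. The 4 month arrays lay below the 1 month arrays, with a change of -0.14 ± 0.04 (adjusted p = 0.0292), and 5 of 8 fits without 1 array of these ages lost that call (adjusted p up to 0.0818). For 4 months against 1 month, Idh3b had a change of -0.18 ± 0.06 and did not pass (adjusted p = 0.0608).

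Citrate synthase, encoded by Cs, is often used as a measure of mitochondrial content. Its level was 9.96, 10.18, 10.24 and 10.26 at 1 month, 10.14, 10.16, 10.20 and 10.29 at 2 months, and 9.91, 10.13, 10.26 and 10.26 at 4 months. It was 10.09, 10.20, 10.22 and 10.30 at 6 months and 10.22, 10.24, 10.31 and 10.36 at 10 months. These groups overlapped, and the change for 10 months against 1 month was 0.12 ± 0.08 (adjusted p = 0.228). Sucla2, Suclg1, Mdh1 and Mdh2 did not pass in any comparison, with changes for 10 months against 1 month between -0.14 and 0.21 on the log2 scale.

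Single probe sets followed the gene summaries for the leading members. At 10 months against 1 month, 93 of the 441 probe sets of the members that passed the filter on dim probe sets were called, beside 22 percent of all probe sets tested, of which 25 were of Hk2 and 14 of Pfkfb2. Against 6 months, 18 were called, beside 5.8 percent of all probe sets, of which 7 were of Pfkp, 4 of Ogdh and 3 of Slc16a3. Against 4 months, 31 were called, beside 5.86 percent. Calls numbered 1 for 2 months against 1 month (1.74 percent of all probe sets), 13 for 4 months against 1 month (4.88 percent) and 18 for 6 months against 1 month (5.04 percent). They numbered 0 for 4 months against 2 months (0.0124 percent) and 0 for 6 months against 4 months (0 percent) in the same limma fit. Probe sets of a gene share its RNA and are not replicates.

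**Figure D4:**
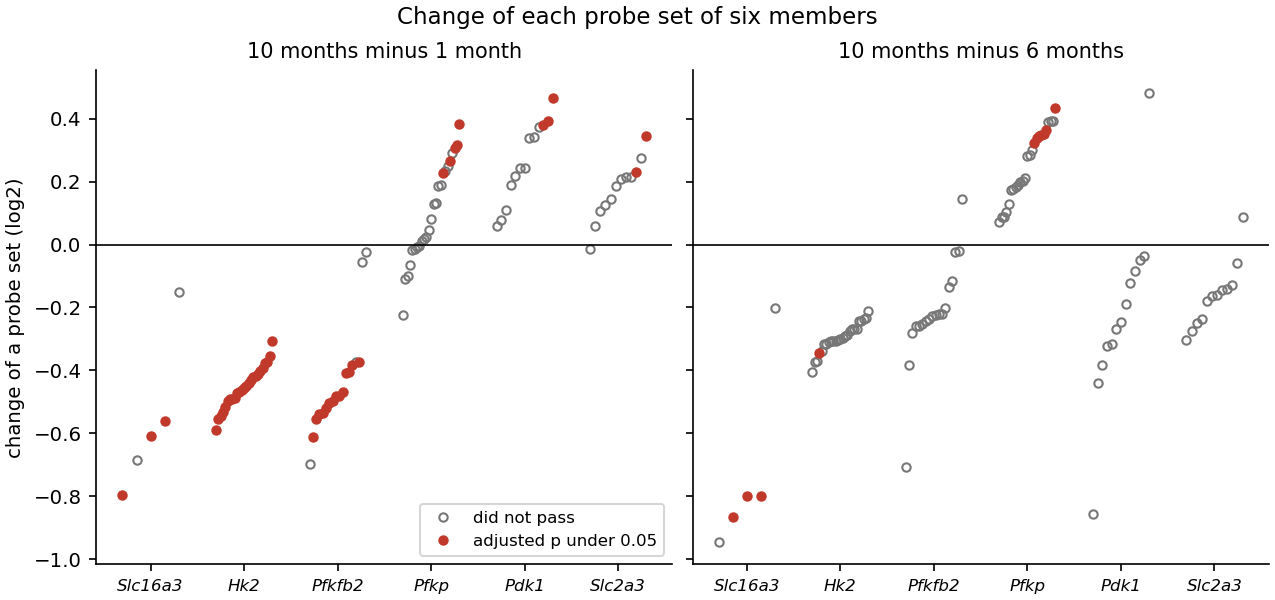
Change in log2 units of each probe set of Slc16a3, Hk2, Pfkfb2, Pfkp, Pdk1 and Slc2a3 for 10 months minus 1 month (left) and 10 months minus 6 months (right), sorted within a gene, with filled points where the adjusted p over all probe sets was under 0.05. All 25 points of Hk2 are filled and lie below 0 on the left, and all 25 points of Pfkp lie above 0 on the right.

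Markers of cell types moved over the same ages, and their part in these results was not tested. The mean level of the 10 cone markers lay between 11.50 and 11.59 at 10 months, against 11.73 to 11.91 at 6 months and 11.85 to 11.97 at 1 month. Of these markers, 6 of 10 were lower for 10 months against 6 months, and none higher. The mean level of the 8 Müller glia markers was between 10.60 and 10.77 at 10 months, against 10.21 to 10.33 at 1 month, and 7 of 8 were higher for 10 months against 1 month. The 8 measured markers of the pigment epithelium, 6 of them above the level limit, lay between 6.53 and 8.45 at 10 months, against 6.60 to 7.42 at 6 months. Lens markers lay between 6.10 and 6.67 at 1 month, and at 5.88 or lower on the later arrays other than replicate 2 of 6 months, which was at 6.475. The mean level of the 6 endothelium and pericyte markers lay between 7.04 and 7.13 at 10 months and 6.99 and 7.24 at 6 months, against 7.55 to 7.86 at 1 month, and 5 of 6 were lower for 10 months and 6 of 6 for 6 months against 1 month. Of 5 ganglion cell markers, 4 were higher for 10 months against 1 month, with a mean level between 9.47 and 9.58 at 10 months, against 9.24 to 9.28 at 1 month. Microglia markers were higher in 4 of 6 cases for 2 months against 1 month, with a mean level between 7.32 and 7.53 at 2 months, against 7.02 to 7.16 at 1 month. Of 4 amacrine cell markers 2 were higher, and of 5 bipolar cell markers 2 were higher and 1 lower, all for 10 months against 1 month. Of 4 rod markers 2 were lower in that comparison, Pde6g and Sag, with means of 11.8 and 12.74 at 1 month. Gnat1 and Nr2e3, with means of 6.29 and 5.45 at 1 month, did not pass. In a retina nearly free of rods, these 4 genes were not read as a measure of rods.

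**Figure D5:**
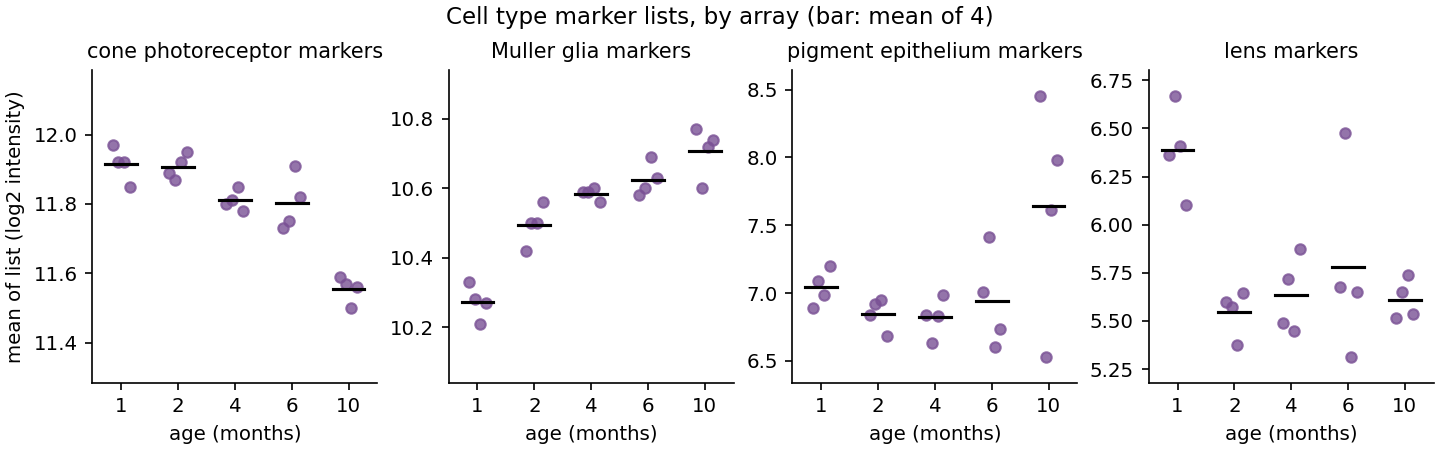
Mean log2 intensity of the marker lists of cones, Müller glia, pigment epithelium and lens on each array against age in months, with a bar at the mean of 4 arrays and a separate vertical range in each panel. Cone markers are lowest at 10 months, Müller glia markers lowest at 1 month, and pigment epithelium markers spread from 6.53 to 8.45 at 10 months.

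Genes around the pathway gave changes in both directions, as did all genes tested, of which 20.6 percent were higher and 20.7 percent lower for 10 months against 1 month. The counts of the lists that follow are small numbers to be read beside these shares, and nothing particular to a list is drawn from them. Of the glycogen genes, 10 were tested, and 4 were higher and 2 lower for 10 months against 1 month. Gys1, glycogen synthase of tissues other than liver, averaged 7.36 ± 0.15 at 10 months and 8.12 ± 0.09 at 6 months (SD, n = 4 each), a fall of -0.76 ± 0.07 (limma adjusted p = 1.04e-06). Pygb and Pygl, which encode brain and liver type glycogen phosphorylase, rose by 0.33 ± 0.06 and 0.24 ± 0.05 for 10 months against 1 month (adjusted p = 0.000319 and 0.000955). Ppp1r3c, which targets a phosphatase to glycogen, changed by -0.34 ± 0.08 for 10 months against 6 months (adjusted p = 0.00477).

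Of 9 tested genes of the pentose phosphate pathway, 2 were higher and 2 lower for 10 months against 1 month. Tkt, transketolase, averaged 10.54 ± 0.10 at 10 months and 10.14 ± 0.10 at 1 month (SD, n = 4 each), a rise of 0.40 ± 0.06 (adjusted p = 2.55e-05). The ribulose phosphate epimerase gene Rpe fell by 0.44 and the ribose phosphate isomerase gene Rpia by 0.27 on the log2 scale (SE 0.10 and 0.06, adjusted p = 0.00122 and 0.00104). Taldo1, transaldolase, did not pass (-0.04 ± 0.11, adjusted p = 0.825).

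Of 17 other pyruvate and citric acid cycle genes, 5 were higher and 2 lower for 10 months against 1 month. Pcx, pyruvate carboxylase, rose by 0.41 ± 0.07 (adjusted p = 0.000199) and Glud1, glutamate dehydrogenase, by 0.27 ± 0.06 (adjusted p = 0.000867). Me2, a mitochondrial malic enzyme, changed by -0.32 ± 0.08 (adjusted p = 0.00449), and Pdhx, which anchors a subunit of pyruvate dehydrogenase, fell by 0.26 for 4 months against 1 month (SE 0.06, adjusted p = 0.00953).

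Of 15 other glycolysis genes, 2 were higher and 2 lower for 10 months against 1 month. Eno3, the muscle enolase, fell by 0.27 (SE 0.07, adjusted p = 0.00677) and Adpgk, an ADP-dependent glucokinase, by 0.16 (SE 0.05, adjusted p = 0.0217). Hkdc1, a hexokinase-like gene, was higher for 10 months against 6 months by 0.32 ± 0.07 (adjusted p = 0.00359), and Pfkfb3, a relative of Pfkfb2, was higher for 4 months against 1 month by 0.29 ± 0.07 (adjusted p = 0.0117).

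Of 15 other carriers, 2 were higher and 2 lower for 10 months against 1 month. Slc25a12, an aspartate and glutamate carrier of mitochondria, rose by 0.23 ± 0.05 (adjusted p = 0.00226), and Slc25a11, the oxoglutarate carrier, fell by 0.17 (SE 0.05, adjusted p = 0.0114). The related Slc25a13 changed by -0.37 ± 0.08 for 6 months against 1 month (adjusted p = 0.00288), and Slc2a4, the insulin-responsive glucose transporter GLUT4, by 0.44 ± 0.10 for 10 months against 6 months (adjusted p = 0.00467).

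Of 26 regulators, 6 were higher and 7 lower for 10 months against 1 month, beside the same 20.6 and 20.7 percent of all genes tested. Nxnl1, which encodes the rod-derived cone viability factor, a protein that acts on cones through basigin and GLUT1, averaged 8.36 ± 0.15 at 10 months and 9.00 ± 0.07 at 6 months (SD, n = 4 each), a fall of -0.64 ± 0.07 (adjusted p = 4.81e-06). Arnt, the partner of the hypoxia-inducible factors, fell by 0.40 (SE 0.07, adjusted p = 0.000124), and Bnip3, one of their known targets, rose by 0.41 ± 0.06 (adjusted p = 1.96e-05), both for 10 months against 1 month. Mycn, a growth regulator of the Myc family, changed by -0.43 ± 0.08 for 6 months against 1 month (adjusted p = 0.000856).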

How the data were processed

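RNA of the 20 retina samples was measured on Affymetrix arrays after ribosomal RNA was reduced, per the labels' protocols. The deposited values are log2 intensities of single probe sets, which the submitters' processing notes credit to RMA. RMA's version, the genome build and how probe sets were chosen were not given in the sources used here, and probe set coordinates are not printed. RMA aligns the distributions of the arrays, so an overall shift at 1 age could not be seen. The deposited values were not aligned in full, with SDs from 2.281 to 2.371 over the arrays. The number of arrays, 4 per age, limits the precision.

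Gene names came from the platform annotation, in which 179496 probe sets had a single symbol. Those with several symbols (1328) were not used, and 13469 carried no symbol. RefSeq synonyms (GRCm38.p6) updated 2014 symbols, and 15741 of the 15803 genes have a current name. Median polish gave a value per gene and array (median 9 probe sets). Genes in the lowest 25% of mean level (log2 under 5.61) were not tested. The model was fitted with limma 3.58.1 (R 4.3.3, lmFit, eBayes), with 1 mean per age, 15 residual degrees of freedom and two-sided tests. It gave 8 comparisons and an F test over the ages, adjusted by Benjamini-Hochberg over all genes, with a threshold of 0.05. Probe sets were fitted likewise, after their own 25% filter. The steps were tested on simulated data. The members, the companion gene lists and the marker lists were chosen with earlier results of these data known.

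Values on every array are given for the 16 members with the smallest p of the F test, and in any case for Hk1, Hk2, Ldhb, Slc2a1, Slc16a1, Bsg, Pdk1, Cs and Idh3a. Members past the threshold are listed for each comparison, and each companion list names the 4 genes with the smallest p of the F test. Cross-hybridisation of near-identical genes was not tested. Replicates are separate mice, per the design text. Alternatives were other summaries, filters, scalings, weights, eBayes settings, a replicate block, a Y-linked covariate, fits on the compared ages alone and leaving out each array. Promoter windows were read from the RefSeq table, and figures were drawn with matplotlib 3.10.9.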

Additional observations from a re-analysis of the deposited data

Results flagged for a closer look

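Over the 100 groups of 4 arrays of the 20 members named with every array, 6 groups held an array far from the other 3, by a gap past Dixon's 95% critical value for 4 arrays, and chance gives about 1 in 20 groups. Slc16a3 stood at 9.45 on replicate 2 of 2 months, against 9.34 to 9.36 on the others of that age. Hk1 stood at 10.94 on replicate 3 of 2 months, against 10.85 on the others. Pfkfb2 was low on replicate 4 of 1 month, at 10.29 against 10.31 to 10.32. Pfkp was high on replicate 1 of 4 months, at 10.54 against 10.50 on the others. Slc2a3 stood at 10.32 on replicate 4 of 10 months, against 10.15 to 10.18, and the call of its fall for 10 months against 6 months passed without this array. Gpi1 stood at 12.89 on replicate 2 of 10 months, against 12.87 on the others.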

How the results depend on the processing

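Counts of members called moved with several settings. For 10 months against 6 months the 8 members became 4 with the Y-linked level as covariate, 4 with only the arrays of the ages compared, 2 with the brightest probe set per gene, and 4 without the 2 arrays of 10 months low in Y-linked genes, a choice made after seeing the data. For 10 months against 4 months the 6 became 10 with trend and robust eBayes, 2 with the brightest probe set and 2 with only the arrays compared. For 2 months against 1 month the 2 became 6 with array weights, 1 with the replicate block, and 0 with the mean of the probe sets, the brightest probe set, the Y-linked covariate or only the arrays compared. For 4 months against 1 month the 5 became 8 with array weights, 2 with the brightest probe set and 3 with only the arrays compared. For 6 months against 1 month the 5 became 11 with array weights and 2 with the brightest probe set, which also gave 6 in place of 10 over any age. The causes were not tested.

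Without 1 array, the counts ran from 0 to 4 for 2 months against 1 month, 3 to 7 for 4 months, 3 to 6 for 6 months and 9 to 11 for 10 months against 1 month, 5 to 7 for 10 months against 6 months, 4 to 8 for 10 months against 4 months and 9 to 13 over any age. The count was 5 for 10 months against 6 months without 10 months replicate 2 or 6 months replicate 3. It was 3 for 4 months against 1 month without 1 month replicate 3 or 4 months replicate 3, and 3 for 6 months against 1 month without 1 month replicate 3 or 6 months replicate 4. For 2 months against 1 month it was 0 without 1 month replicates 2 or 3 or 2 months replicates 2 or 4, 1 without 2 months replicate 3 and 4 without 2 months replicate 1.

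Scaling moved the split of higher and lower calls: for 10 months against 4 months it was 5 and 4 with arrays centred on their median and 4 and 4 with quantile normalization, in place of 2 and 4, and for 10 months against 1 month 9 and 5 with quantile normalization in place of 6 and 5. Without the filter, the probe sets called were 0 in place of 1 for 2 months, 5 in place of 13 for 4 months against 1 month, 10 in place of 18 for 10 months against 6 months and 19 in place of 31 for 10 months against 4 months.

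Replicate numbers do not pair the mice. Same-numbered arrays of different ages had deviations that correlated between -0.573 and 0.563, with a median of -0.0312, and 10 of 40 pairs were over 0.1. Arrays of different ages with other numbers gave -0.612 to 0.645, with a median of -0.00235, and 31 of 120 pairs were over 0.1. No called change of a member reversed its sign in the alternatives run. Slc16a3 (3 comparisons with 10 months), Hk2, Pfkfb2, Pdk1 and Ogdh for 10 months against 1 month, Pdk1 for 4 and 6 months and Slc2a3 for 6 months against 1 month kept their call in every alternative run. Other calls were lost in some, such as Slc2a3 in 14, Slc2a1 in 12 and Fh1 in 6 of 20 alternatives for 10 months against 6 months, and Pdk2 in 12 and Ogdh in 10 of 20 for 10 months against 4 months. Members with 1 or 2 probe sets are limited by probe number, and 4 arrays per age limit all.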
